A study of Rattus norvegicus with 6 samples.

Results

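The genes described here are 6 genes of the response to unfolded protein in the endoplasmic reticulum (ER) and of protein folding, chosen by Ensembl gene ID and not by their values. They are Hspa5 (ENSRNOG00000018294), Hsp90b1 (ENSRNOG00000026963), Calr (ENSRNOG00000003029), Atf4 (ENSRNOG00000017801), Ddit3 (ENSRNOG00000006789) and Hspb1 (ENSRNOG00000023546). All 6 were among the 26689 gene IDs of the files, and all 6 were among the 9932 genes that passed the filter on low counts. The pairing of ID and symbol was part of the rule that chose them. Neither the count files nor the RefSeq table pairs Ensembl IDs with symbols (0 of 26689 IDs were found in that table), so the pairing was not checked here.

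Messenger RNA of rat liver was sequenced after ischemia reperfusion (IR), an injury made by clamping the portal vein for a time and letting the blood return. The series asked whether acting on vasoconstriction or on inflammation would improve the outcome. Control animals were healthy and untreated, and no sham operation is named for them. IR animals had IR alone, and treated IR animals also received 9 mg/kg etanercept, which binds tumor necrosis factor, 16 to 18 h before IR and 6 µg/kg/min nitroglycerin, a nitric oxide donor, before and during IR. Each condition was measured on whole liver and on hepatocytes that were prepared fresh from additional animals with collagenase, and RNA was taken 1 day after IR. Each of the 6 groups was 1 library of pooled RNA from 3 animals, so no difference between 2 libraries had a replicate check, and the words higher and lower describe those libraries. The sources used here give no strain, sex or age of the animals, and the tissue labels could not be checked against marker genes because the IDs carry no symbols.

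The ER folds the secreted proteins that hepatocytes make in bulk. When unfolded protein builds up there, sensors in the ER membrane set off a response that raises ER chaperones, lowers translation and, when stress lasts, can lead to cell death. Hspa5 encodes BiP, the main ER chaperone and a partner of these sensors, Hsp90b1 encodes the ER form of the Hsp90 chaperone, and Calr encodes calreticulin, which binds calcium and folds glycoproteins. Atf4 encodes a transcription factor whose translation is raised when the initiation factor eIF2 is phosphorylated, so that its mRNA need not follow its protein. Ddit3 encodes CHOP, a transcription factor downstream of Atf4 that is linked to cell death. Hspb1 encodes a small heat shock protein of the cytosol that holds unfolded proteins and binds the actin skeleton, and it is not an ER protein.

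The promoters of the ER chaperone genes carry a known element. It was first described in promoters of ER chaperone genes such as these, so its presence there is background and no independent result. The 250 bases before the annotated start of each gene were taken from RefSeq (build GRCr8) by symbol, which found all 6 genes, and were searched on both strands for the ER stress response element, CCAAT and CCACG with 9 bases of any kind between them. The table has 33469 promoters, of which 22 (0.0657%) held the element, and those of Hspa5, Hsp90b1 and Calr were among them. The 3 promoters are shown because these genes also had the most similar profiles among the 6 below, although many other genes lay nearer to each. Whether the element bears on the profiles was not tested. Capitals mark the fixed letters of the element, which read CGTGG and ATTGG where it lies on the other strand. The Hspa5 promoter is chr3:38452766-38453015 on the plus strand, that of Hsp90b1 is chr7:23012294-23012543 on the minus strand, and that of Calr is chr19:40213117-40213366 on the plus strand.

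Hspa5: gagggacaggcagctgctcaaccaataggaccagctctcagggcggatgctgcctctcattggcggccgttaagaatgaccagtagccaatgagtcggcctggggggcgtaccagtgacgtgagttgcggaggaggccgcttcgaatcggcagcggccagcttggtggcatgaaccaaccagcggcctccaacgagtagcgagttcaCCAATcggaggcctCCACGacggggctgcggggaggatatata
Hsp90b1: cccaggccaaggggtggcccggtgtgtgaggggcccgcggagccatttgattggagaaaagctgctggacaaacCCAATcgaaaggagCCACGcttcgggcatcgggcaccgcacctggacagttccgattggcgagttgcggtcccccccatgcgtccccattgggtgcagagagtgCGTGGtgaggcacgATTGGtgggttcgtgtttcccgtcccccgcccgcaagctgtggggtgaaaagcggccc
Calr: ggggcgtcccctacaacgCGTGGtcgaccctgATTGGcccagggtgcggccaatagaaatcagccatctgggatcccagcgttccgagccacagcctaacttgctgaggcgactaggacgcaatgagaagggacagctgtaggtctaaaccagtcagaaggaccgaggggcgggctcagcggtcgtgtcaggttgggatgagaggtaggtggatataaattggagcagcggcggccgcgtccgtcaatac

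In the Hspa5 promoter the element lay 43 to 25 bases before the start. Hsp90b1 held it in both orientations, at 176 to 158 and at 72 to 54 bases before the start. In the Calr promoter it lay on the other strand at 232 to 214 bases before the start. Of 45 further genes of the ER stress and chaperone pathways listed by symbol, 34 had a promoter in the table, and 5 of these held the element: Canx, Dnajc3, Creld2, Xbp1 and Derl3. The promoters of Atf4, Ddit3 and Hspb1 held no match. None of the 6 promoters held the core of the C/EBP-ATF response element (TGATG, any base, AA), found in 3.4% of promoters, or the heat shock element (GAA, TTC and GAA with 2 bases of any kind between each), found in 0.663%. No match overlapped another. A match is no proof of a site in use, and a missing match says only that these letters are not in this window. The 45 listed genes carry no ID in the count files, so their expression was not analysed here.

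Reads in genes numbered 1945331 to 7160610 per library. Levels are given as CPM (counts divided by the library total and expressed per 1000000 reads) scaled between libraries by TMM, a method that assumes that most genes do not differ, and intervals are 95% intervals that cover counting error only. Ratios of 2 libraries carry a Clopper-Pearson counting interval. A gene was called apart when its ratio was at least 2-fold and the interval excluded equality. Within a gene, fewer cells of a type and less RNA per cell cannot be told apart in pooled tissue. CPM were not divided by transcript length, so levels are compared within a gene and not between genes.

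Of the ER chaperones, Hspa5 in whole liver was at 560.4 CPM in the control library (1284 reads), 558 CPM with IR alone (3766 reads) and 765 CPM with treated IR (5732 reads). The hepatocyte libraries had 1062 CPM in the control library (3421 reads), 837 CPM with IR alone (4329 reads) and 1041 CPM with treated IR (2242 reads). With TMM all 3 hepatocyte libraries were thus above all 3 liver libraries. This order turned with library totals alone, where liver treated IR was at 946 CPM, above hepatocyte treated IR (825 CPM) and hepatocyte IR (811 CPM). With TMM the counting intervals overlapped between hepatocyte control and treated IR, and between liver control and liver IR, while the other neighbours in the order were apart by more than counting error.

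In whole liver Hsp90b1 was at 289.8 CPM in the control library (664 reads), 408 CPM with IR alone (2756 reads) and 505 CPM with treated IR (3780 reads). The hepatocyte libraries had 578 CPM in the control library (1862 reads), 510.5 CPM with IR alone (2640 reads) and 651 CPM with treated IR (1402 reads). The lowest hepatocyte library lay just above the highest liver library, with overlapping counting intervals (491 to 530.3 against 489 to 521 CPM). Liver treated IR was the highest of the 6 with library totals alone, at 624 CPM against 495 to 540 CPM in hepatocytes.

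In whole liver Calr was at 826 CPM in the control library (1892 reads), 1071 CPM with IR alone (7226 reads) and 1177 CPM with treated IR (8821 reads). The hepatocyte libraries had 1571 CPM in the control library (5061 reads), 925 CPM with IR alone (4786 reads) and 1583 CPM with treated IR (3409 reads). Liver and hepatocytes overlapped for this gene, because the hepatocyte IR library lay between liver control and liver IR with TMM and below all 3 liver libraries with library totals alone.

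Of the transcription factors, Atf4 in liver was at 94.3 CPM in the control library (216 reads), 80.2 CPM with IR alone (541 reads) and 92.8 CPM with treated IR (695 reads). The hepatocyte libraries had 90.6 CPM in the control library (292 reads), 103 CPM with IR alone (535 reads) and 141 CPM with treated IR (303 reads). With TMM hepatocyte treated IR stood above the other 5 libraries beyond counting error, and neighbours among those 5 overlapped in their intervals. It did not stand apart with library totals alone, at 112 CPM against 115 CPM in liver treated IR and 111 CPM in liver control. Ddit3 was low everywhere, and the liver libraries had 7.42 CPM in the control library (17 reads), 9.19 CPM with IR alone (62 reads) and 12.5 CPM with treated IR (94 reads). The hepatocyte libraries had 5.59 CPM in the control library (18 reads), 3.09 CPM with IR alone (16 reads) and 10.2 CPM with treated IR (22 reads). At this depth no neighbours in the order of Ddit3 levels were distinguishable.

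Hspb1 varied most of the 6 genes. In whole liver it was at 6.11 CPM in the control library (14 reads), 16.0 CPM with IR alone (108 reads) and 55.1 CPM with treated IR (413 reads). The hepatocyte libraries had 18.6 CPM in the control library (60 reads), 6.38 CPM with IR alone (33 reads) and 24.1 CPM with treated IR (52 reads). The highest library was 9.02 times the lowest in liver and 3.78 times the lowest in hepatocytes, against 1.18 to 1.74 times in liver and 1.27 to 3.30 times in hepatocytes for the other 5 genes. Liver treated IR was above every other library, and hepatocyte IR and liver control were the lowest, with overlapping intervals. The intervals of liver IR, hepatocyte control and hepatocyte treated IR also overlapped.

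**Figure D1:**
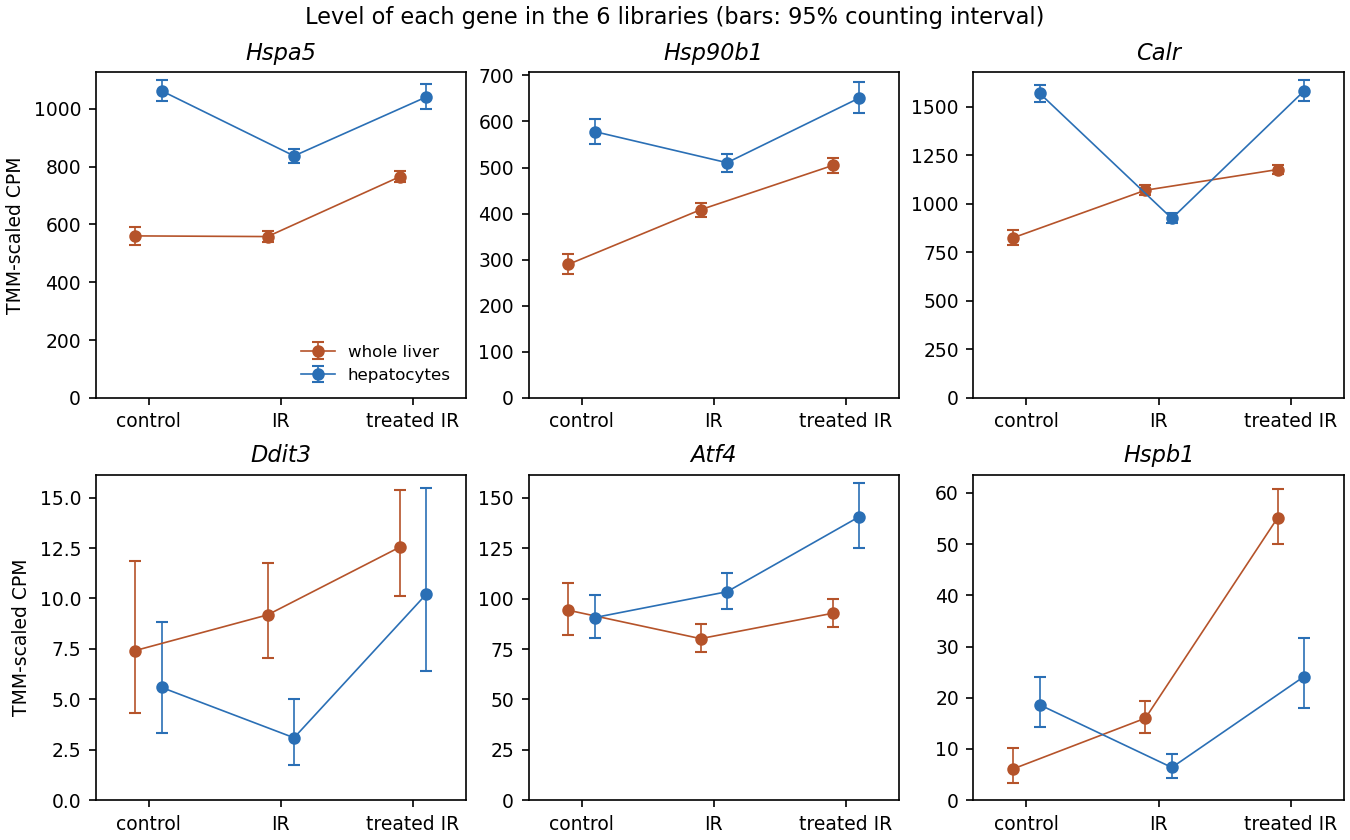
TMM-scaled CPM of each gene (vertical axes, from 0) in control, IR and treated IR libraries of whole liver and hepatocytes, 1 library per point, with 95% Poisson counting intervals. Hspa5 is higher in every hepatocyte library than in any liver library on this scale (not with library totals alone), the hepatocyte IR library is the lowest hepatocyte library for 5 of the 6 genes (all but Atf4), and Hspb1 reaches 55.1 CPM in liver treated IR.

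Hepatocytes were compared with whole liver across the 3 conditions. Of the 9932 genes, 5.34% were called by edgeR's quasi-likelihood test (adjusted p at most 0.05), and 0 of the 6 genes were. Hspa5 was 1.57-fold higher in hepatocytes (log2 ratio 0.65 with SE 0.37, edgeR adjusted p = 0.704), and 96.0% of genes had a lower ratio. The mean was 979.9 ± 124 CPM in hepatocytes and 628 ± 119 CPM in liver (SD over conditions, n = 3 for each). Hsp90b1 had a log2 ratio of 0.56 ± 0.35 SE (adjusted p = 0.797 by edgeR) and Calr of 0.38 (SE 0.41, edgeR adjusted p = 0.942). With TMM Hspa5 and Hsp90b1 were higher in hepatocytes in 3 of 3 conditions and Calr in 2 of 3, and with library totals alone these were 2 of 3, 2 of 3 and 1 of 3. In the control pair the 3 ER chaperones differed by nearly the same factor, with hepatocytes 1.89-fold higher for Hspa5 (counting interval 1.78 to 2.02), 1.99-fold for Hsp90b1 (1.82 to 2.18) and 1.90-fold for Calr (1.80 to 2.01). In the IR pair these ratios were spread out, at 1.5, 1.25 and 0.864, and in the treated IR pair they were 1.36, 1.29 and 1.34. The treated IR pair turned with library totals alone, to 0.870, 0.825 and 0.860, each interval below equality.

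Ddit3 had a log2 ratio of hepatocytes to liver of -0.76 ± 0.39 SE (adjusted p = 0.604 by edgeR), and was lower in hepatocytes in 3 of 3 conditions. With TMM only the IR pair was beyond counting error (2.97-fold lower, 1.69 to 5.51). The control pair (1.33-fold lower, 0.643 to 2.73) and the treated IR pair (1.23-fold lower, 0.766 to 2.05) were within it. With library totals alone the treated IR pair was beyond it too (ratio 0.521, 0.312 to 0.835). Atf4 had a log2 ratio of 0.31 ± 0.29 SE (adjusted p = 0.933 by edgeR), which was -0.0074 with library totals alone. For Hspb1 the log2 ratio was -0.47 (SE 0.45, edgeR adjusted p = 0.933), and the conditions differed in direction. It was -1.24 without liver control or without hepatocyte control, and -0.0013 without hepatocyte treated IR. Hepatocytes were 3.05-fold higher in control (counting interval 1.68 to 5.91), 2.51-fold lower in IR (1.68 to 3.83) and 2.28-fold lower in treated IR (1.71 to 3.11).

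The first pair set liver IR beside liver control. Hspb1 was the 1 gene of the 6 called apart, 2.62-fold higher in the IR library (counting interval 1.5 to 4.95). Among all genes 3.76% were apart and higher and 2.23% apart and lower. Hsp90b1 was 1.41-fold higher (1.29 to 1.54) and Calr 1.30-fold higher (1.23 to 1.36), so that 3 of the 6 genes were higher beyond the counting interval and 0 lower, where 12% of all genes were higher and 9.67% lower. The interval narrows with the number of reads: among the 958 genes at least as abundant as Atf4, a subset chosen after the values were seen, 34.2% were higher and 33.7% lower. Hspa5 (0.996-fold, 0.934 to 1.06), Ddit3 (1.24-fold, 0.715 to 2.26) and Atf4 (0.850-fold, 0.725 to 1.0) were within counting error, although Atf4 was lower beyond it with DESeq2's size factors (log2 ratio -0.26). The median log2 ratio of the 6 genes was 0.34 and that of all genes 0.04. With library totals alone every log2 ratio of this pair shifted by -0.32. Then Hsp90b1 and Hspb1 were higher and Hspa5 and Atf4 lower beyond counting error, and 18.7% of the genes apart were higher in place of 62.8%.

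The same comparison in hepatocytes ran the other way for Hsp90b1, Calr and Hspb1. Hspb1 was apart and 2.92-fold lower in the IR library (counting interval 1.88 to 4.61), where 6.97% of all genes were apart and lower and 9.59% apart and higher. Calr was 1.70-fold lower (1.63 to 1.77), Hspa5 1.27-fold lower (1.21 to 1.33) and Hsp90b1 1.13-fold lower (1.07 to 1.20). These 4 genes were lower beyond counting error and 0 were higher, where 20.7% of all genes were lower and 21.4% higher. Among the 958 abundant genes 56.4% were lower and 30.7% higher with TMM, so on that scale the ER chaperones lay on the side of most abundant genes here. Ddit3 (1.81-fold lower, 0.869 to 3.79) and Atf4 (1.14-fold higher, 0.988 to 1.32) were within counting error. The median log2 ratio was -0.55 for the 6 genes and 0.01 for all genes. Atf4 was higher beyond counting error with library totals alone (log2 ratio 0.24). Hspb1, Calr and Hsp90b1 were therefore higher in liver and lower in hepatocytes beyond counting error with TMM, as were 4.57% of 9870 genes with a ratio in both preparations and 22.8% of the 958 abundant genes, to which Calr and Hsp90b1 belong. Calr left this set with library totals alone, and the set then held 1.63% and 9.39%. The opposite pattern, lower in liver and higher in hepatocytes, held 3.16% and 14.3% with TMM. With library totals alone it held 7.35% and 25.3%, so the commoner pattern turned with the scaling. Whether the preparations differ in their response was not tested, since each has 1 library per condition.

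For IR vs control in the fit of both preparations, 0 of 9932 genes (0%) passed by edgeR, and 332 had an unadjusted p below 0.05. Neither DESeq2 nor limma-voom called a gene (0 for each). The 6 genes had log2 ratios between -0.34 (Hspb1, SE 0.56) and 0.15 (Hsp90b1, SE 0.42), with edgeR adjusted p-values of 0.996 or 0.997. The value of Hspb1 was -1.51 without liver control, -0.97 without liver IR, 0.25 without hepatocyte IR and 1.36 without hepatocyte control. That of Ddit3 was -0.88 without liver IR (-0.18 with all libraries).

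The drugs were assessed by setting treated IR against IR alone. In liver Hspb1 was apart and 3.44-fold higher in the treated library (counting interval 2.78 to 4.30), and 41 of 9932 genes had a higher ratio. Among all genes 1.82% were apart and higher and 0.946% apart and lower. Hspa5 was 1.37-fold higher (1.32 to 1.43), Hsp90b1 1.24-fold (1.18 to 1.30), Atf4 1.16-fold (1.03 to 1.30) and Calr 1.10-fold (1.07 to 1.13). Together with Hspb1 these made 5 of the 6 genes higher beyond counting error and 0 lower, where 9.57% of all genes were higher and 12.3% lower. With TMM 14.7% of the 958 abundant genes were higher and 50.1% lower. On that scale Hspa5, Hsp90b1, Calr and Atf4, which belong to that subset, lay on the side of the fewer. These shares were not computed with library totals alone. Ddit3 was 1.37-fold higher, within counting error (0.981 to 1.91). The median log2 ratio was 0.38 for the 6 genes and -0.01 for all genes. With library totals alone the ratios shifted by 0.39, 6 of the 6 genes were higher beyond counting error, and 95.9% of the genes apart were higher in place of 65.8%.

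In hepatocytes Hspb1 was again apart, 3.78-fold higher in the treated library (counting interval 2.4 to 6.04), and so was Ddit3, 3.30-fold higher (1.66 to 6.72) on 22 and 16 reads. Among all genes 11.3% were apart and higher and 12.1% apart and lower. Calr was 1.71-fold higher (1.64 to 1.79), Atf4 1.36-fold (1.18 to 1.57), Hsp90b1 1.28-fold (1.19 to 1.36) and Hspa5 1.24-fold (1.18 to 1.31). All 6 genes were higher beyond counting error, where 23.3% of all genes were higher and 21.4% lower. Among the 958 abundant genes 57.4% were higher and 28.9% lower. The median log2 ratio was 0.61 for the 6 genes and -0.03 for all genes. With library totals alone the ratios shifted by -0.29. Calr, Ddit3 and Hspb1 were then still higher beyond counting error, Hspa5, Hsp90b1 and Atf4 were within it, and 25.2% of the genes apart were higher in place of 48.2%.

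The 2 treated vs untreated ratios share no library. In liver 181 of 9932 genes were apart and higher, and in hepatocytes 1113 of 9865. Hspb1 was among 13 of 9865 genes that were so in both preparations. These 13 are a smaller share of the 181 than the 11.3% of all genes that were apart and higher in hepatocytes. The overlap was thus no larger than unrelated ratios would give, and it was not tested. Hspb1 was also among 74 genes that were apart and higher in liver IR and apart and lower in hepatocyte IR than in control. Hspb1 was the 1 gene in both sets, which was looked for after its values were seen. The 2 sets are not independent, since both use the IR libraries. In the fit across both preparations Hspb1 had a log2 ratio of treated IR to IR of 1.83 (SE 0.52, unadjusted p = 0.00309, edgeR adjusted p = 0.981), higher in 2 of 2 preparations, and 99.74% of genes had a lower ratio. This did not pass the correction over 9932 genes, of which edgeR called 0 (0%), while 297 had an unadjusted p below 0.05. By limma-voom 0 genes passed and by DESeq2 1, which was none of the 6. With no filter on low counts the edgeR adjusted p for Hspb1 was 0.00274 (log2 ratio 1.81). The log2 ratio of Hspb1 was 2.62 without the liver IR library, 2.27 without hepatocyte treated IR and 1.05 without liver treated IR. In each of these fits hepatocytes or liver alone stood for 1 of the conditions, so only the ratio is given. Ddit3 had a log2 ratio of 0.96 ± 0.45 SE (adjusted p = 0.981 by edgeR), which was 1.68 without liver IR and 0.46 without hepatocyte IR. Hspa5, Hsp90b1, Calr and Atf4 had log2 ratios of 0.33 to 0.43 (edgeR adjusted p = 0.981 for each).

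**Figure D2:**
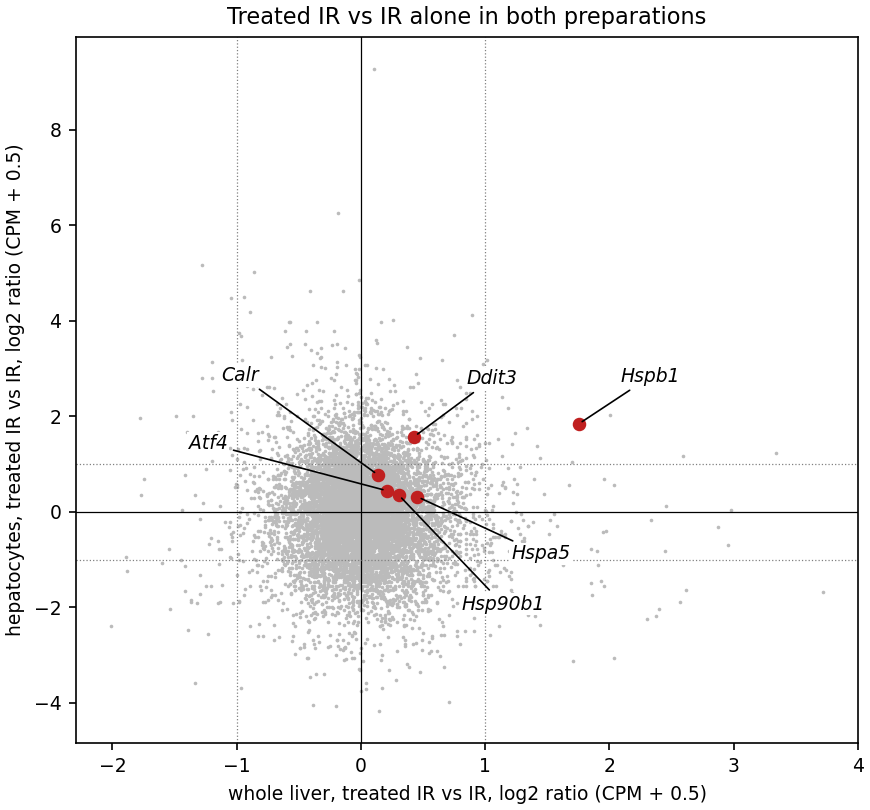
Log2 ratio of treated IR to IR alone in whole liver (horizontal axis) and hepatocytes (vertical axis) for 9865 genes, 1 grey point per gene, with 0.5 CPM added to each level, the 6 genes in red and dotted lines at 2-fold. Hspb1 lies at the upper right, beyond 2-fold in both preparations, and the other 5 genes lie above 0 on both axes.

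Treated IR was last compared with control, which shares its libraries with the comparisons above. In liver Hspb1 was apart and 9.02-fold higher (counting interval 5.32 to 16.6), where 4.81% of all genes were apart and higher and 2.39% apart and lower, and 50 of 9932 genes had a higher ratio. Hsp90b1 was 1.74-fold higher (1.60 to 1.89), Calr 1.43-fold (1.36 to 1.5), Hspa5 1.37-fold (1.28 to 1.45) and Ddit3 1.69-fold (1.0 to 3.03). With Hspb1 these made 5 of 6 genes higher beyond counting error, where 12.8% of all genes were higher and 11.8% lower, and 28.1% and 46.5% of the 958 abundant genes. Atf4 was at 0.984-fold (0.844 to 1.15). The interval of Ddit3 included equality with DESeq2's size factors. In hepatocytes 0 of the 6 genes were apart, where 4.29% of all genes were apart and higher and 4.15% apart and lower. Atf4 was 1.55-fold higher (1.32 to 1.83) and Hsp90b1 1.13-fold higher (1.05 to 1.21), so 2 genes were higher beyond counting error and 0 lower, where 16.2% of all genes were higher and 11.2% lower, and 48.5% and 23.3% of the abundant genes. Calr (1.01-fold, 0.964 to 1.05), Hspa5 (0.980-fold, 0.929 to 1.03), Hspb1 (1.30-fold, 0.877 to 1.91) and Ddit3 (1.83-fold, 0.936 to 3.62) were within counting error. With library totals alone the hepatocyte ratios shifted by -0.24, and Atf4 was higher while Hspa5 and Calr were lower beyond counting error. The genes apart were then 18.7% higher in place of 50.8%.

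For treated IR vs control across both preparations edgeR called 0 of 9932 genes (0%), while 230 had an unadjusted p below 0.05, and neither DESeq2 nor limma-voom called a gene (0 for each). Hspb1 had a log2 ratio of 1.49 ± 0.55 SE (adjusted p = 1 by edgeR). Without liver IR it was 1.64, without hepatocyte IR 1.62, without hepatocyte treated IR 2.10 and without hepatocyte control 3.19. It was 0.33 without liver control and 0.87 without liver treated IR. In each of these fits hepatocytes or liver alone stood for 1 of the conditions, so only the ratio is given. The other 5 genes had log2 ratios of 0.21 (Hspa5) to 0.78 (Ddit3), with an edgeR adjusted p of 1 for each.

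**Figure D3:**
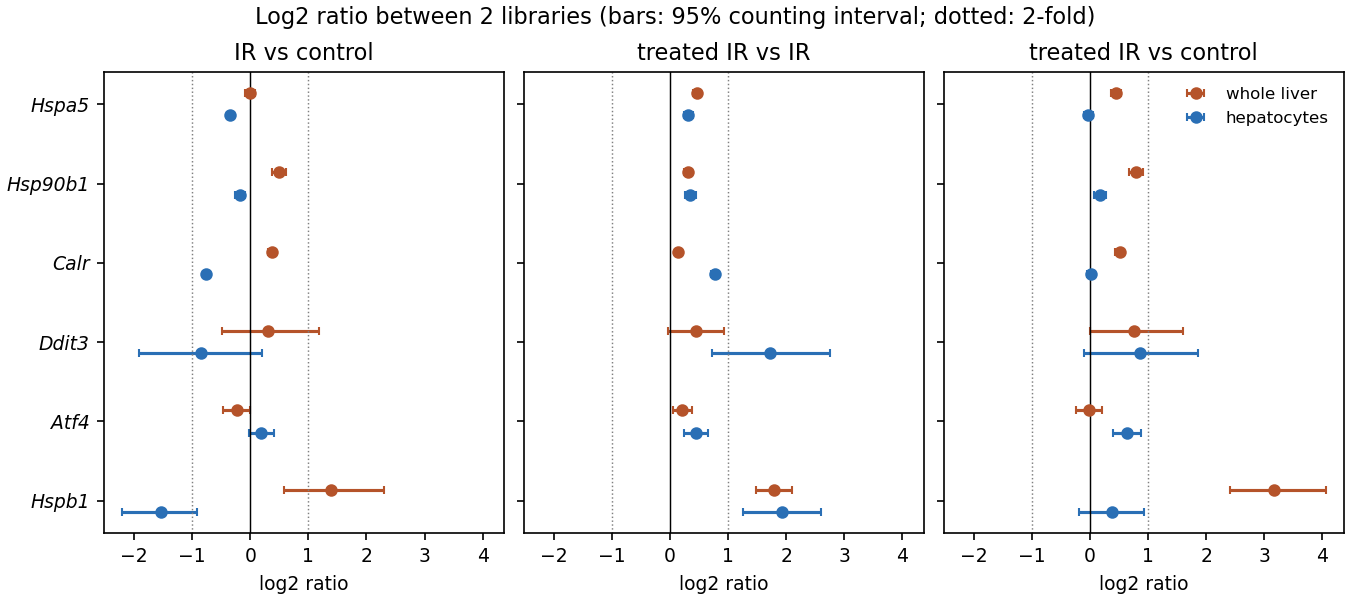
Log2 ratio between 2 libraries (horizontal axis) for each gene (rows) in 3 comparisons, in whole liver and in hepatocytes, with 95% Clopper-Pearson counting intervals and dotted lines at 2-fold. For IR vs control the liver and hepatocyte points of Hsp90b1, Calr and Hspb1 lie on opposite sides of 0, and for treated IR vs IR every point lies above 0.

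Ratios of reads between 2 genes of the same library need no scaling between libraries. For each Hspa5 read there were 1.47 Calr reads in liver control (95% Clopper-Pearson interval 1.37 to 1.58), 1.54 in liver treated IR (1.49 to 1.59), 1.48 in hepatocyte control (1.42 to 1.55) and 1.52 in hepatocyte treated IR (1.44 to 1.60). These 4 libraries overlapped. The ratio was 1.92 in liver IR (1.84 to 2.0) and 1.11 in hepatocyte IR (1.06 to 1.15), so the IR libraries lay outside the others, above them in liver and below them in hepatocytes.

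There were 1.93 Hspa5 reads for each Hsp90b1 read in liver control (1.76 to 2.13) and 1.84 in hepatocyte control (1.74 to 1.95). After IR the ratio was 1.37 in liver IR (1.30 to 1.44), 1.52 in liver treated IR (1.46 to 1.58), 1.64 in hepatocyte IR (1.56 to 1.72) and 1.60 in hepatocyte treated IR (1.5 to 1.71). Both control libraries were above all 4 libraries after IR, with no overlap of the intervals. These ratios were chosen after the levels were seen and are given without a test. For each 1000 Hspa5 reads the liver libraries had 10.9 (control), 28.7 (IR) and 72.1 (treated IR) Hspb1 reads, and the hepatocyte libraries 17.5, 7.62 and 23.2. Liver treated IR was thus the highest and hepatocyte IR the lowest of the 6 libraries without any scaling, although the intervals of hepatocyte IR and liver control overlapped.

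**Figure D4:**
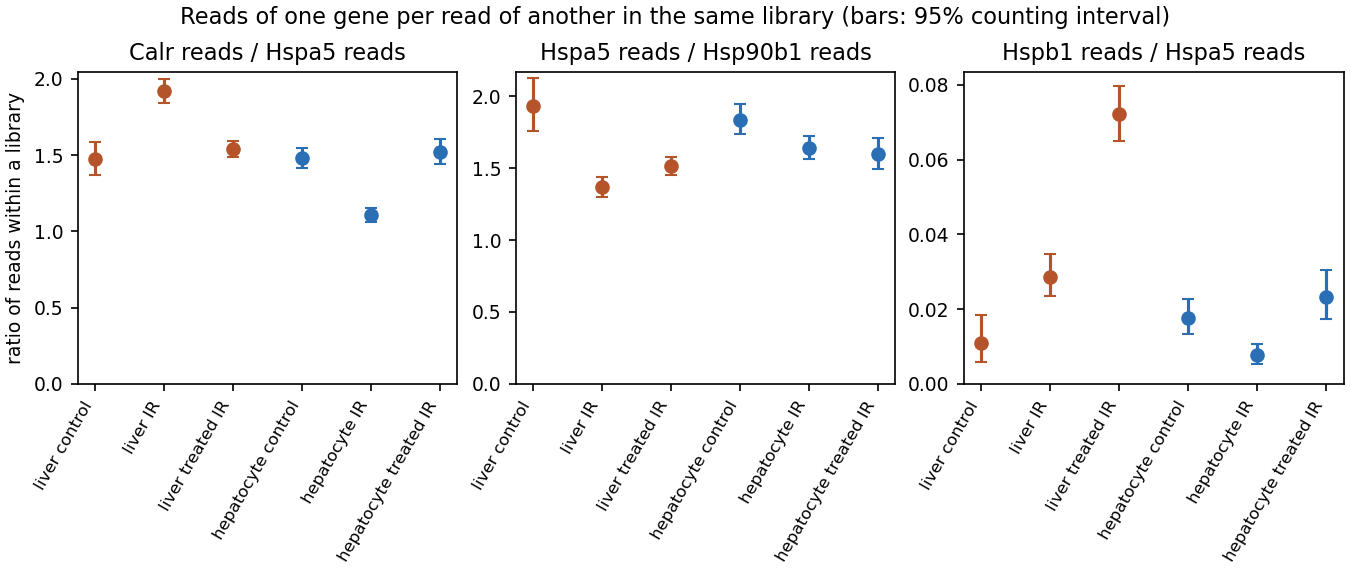
Reads of 1 gene divided by reads of another in the same library (vertical axes, from 0) for Calr to Hspa5, Hspa5 to Hsp90b1 and Hspb1 to Hspa5, 1 point per library, with 95% Clopper-Pearson intervals, liver in brown and hepatocytes in blue. The Calr to Hspa5 ratio departs from the other 4 libraries in liver IR (1.92) and hepatocyte IR (1.11), and the Hspa5 to Hsp90b1 ratio is highest in the 2 control libraries.

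The profiles of the 6 genes over the 6 libraries were compared by the root-mean-square difference of log2 CPM, each gene centred on its own mean. Hsp90b1 was the member nearest to Hspa5 with a difference of 0.17, rank 32 of 9931 other genes, followed by Calr (0.23, rank 177) and Atf4 (0.30, rank 705). Ddit3 (0.78, rank 8162) and Hspb1 (1.0, rank 8972) were far from it. From Hsp90b1 the nearest member was Hspa5 at rank 53, and from Calr it was Hsp90b1 at rank 440. Many genes outside the 6 thus lay nearer to each ER chaperone than any other member did. The genes nearest to Hspa5 of all carry only IDs. ENSRNOG00000012368 had a difference of 0.10 at 2.18 to 4.66 CPM, a level at which counting error is large. ENSRNOG00000032297 had a difference of 0.10, with 95.1 (control), 109.8 (IR) and 138 CPM (treated IR) in liver libraries and 214, 140.4 and 193 CPM in those of hepatocytes. Like Hspa5 it was higher, with TMM, in each hepatocyte library than in the liver library of the same condition. The difference is a description over 6 libraries, in which all genes of a library share its preparation, depth and scaling.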

How the data were processed

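Poly(A)-selected RNA of 6 pools was sequenced on an Ion Torrent Proton instrument, per the labels' protocols and the series' design text. The deposited values are raw read counts per Ensembl gene ID. The submitters' processing notes name TopHat2 2.0.13 and HTSeq 0.6.1. The sources used here do not give the build, annotation or strand setting, so reads shared with overlapping, antisense or near-identical genes could be lost or split. Reads outside genes (6.23% to 8.34% of uniquely aligned reads) and ambiguous reads (0.358% to 0.798%) were left out. Alignments that were not unique were left out too, and their share of all alignments was larger and uneven. It was highest for liver IR (60.15%), against 46.32% for liver control and 41.11% for liver treated IR. Hepatocyte libraries ranged from 43.71% to 46.05%. Whether this loss bears on the ratios that use liver IR was not tested.

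Sample titles gave the groups. The filter was filterByExpr of edgeR (by condition, minimum count 10), which kept 9932 genes, and the scaling was TMM (factors 0.794 to 1.24). A count of 0 allows up to 3 reads, or 0.40 to 1.39 CPM by library. Additive models of preparation and condition on all 6 libraries (2 residual degrees of freedom) were tested by quasi-likelihood in edgeR, Benjamini-Hochberg adjusted over 9932 genes. The additional animals behind the hepatocytes were taken as separate pools, and p-values measure only the spread between these libraries, which includes any response that differs between preparations. Pairs of libraries got ratios and counting intervals, and no p-value. The scripts were tested on simulated data. Alternatives were other scalings, filters, tests (DESeq2, limma-voom), omission of single libraries and a 1.5-fold rule.

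The rule for the genes named in the text took the 6 genes, at most 2 IDs nearest to Hspa5 and, if a table paired IDs with symbols, pathway and cell type marker lists. No table did, so those lists were not run on the counts. The genes, lists and tests were chosen with earlier results of these data known. The software was edgeR 4.0.16, DESeq2 1.42.0 and limma 3.58.1 under R 4.3.3, with Python 3.11.15 for promoters and figures.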

Additional observations from a re-analysis of the deposited data

Results flagged for a closer look

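For IR vs control, 3 of the 6 genes were higher in the liver IR library and lower in the hepatocyte IR library, each beyond counting error, as were 4.57% of all genes and 22.8% of the 958 abundant genes (at least as abundant as Atf4). The log2 ratio in liver minus that in hepatocytes was 2.93 for Hspb1 (counting SE 0.52), 1.14 for Calr (0.05) and 0.67 for Hsp90b1 (0.08). Whether liver and hepatocytes differ was not tested, because each has 1 library per condition. With library totals alone the liver and hepatocyte log2 ratios were 1.07 and -1.49 for Hspb1, 0.05 and -0.71 for Calr, and 0.17 and -0.13 for Hsp90b1. The liver ratio of Calr was then within counting error. Of all genes 1.63% then had this pattern and 7.35% the opposite one.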

How the results depend on the processing

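No paired analysis was possible because the labels give no replicate numbers and each group holds 1 library. Over the alternatives tried, 383 of 422 values of the 6 genes kept their direction and their side of the threshold, or moved by less than their counting interval, and 15 changed sign in the fits across preparations. Ddit3 did not pass the filter with a minimum count of 50 and has no value for that alternative. Scaling by library totals alone moved log2 ratios outside their counting intervals. For liver IR vs control it gave -0.33 for Hspa5, 0.17 for Hsp90b1, 0.053 for Calr and -0.56 for Atf4. For liver treated IR vs IR it gave 0.85, 0.70, 0.53 and 0.60 for the same genes and 2.18 for Hspb1. For hepatocyte treated IR vs IR it gave 0.024, 0.060, 0.48 and 0.15, and for hepatocyte treated IR vs control -0.27, -0.065, -0.23 and 0.40. For hepatocytes vs liver the log2 ratio of Atf4 became -0.0074 (0.31 with TMM). With no filter edgeR called 3, 31 and 14 genes for IR vs control, treated IR vs IR and treated IR vs control, and Hspb1 passed for treated IR vs IR (log2 ratio 1.81). The cause was not tested. DESeq2 called 1 gene for treated IR vs IR, and for hepatocytes vs liver 530 genes were called in the reported fit and 158 with a minimum count of 50, which tests fewer genes.

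Leaving out 1 library at a time gave 3 to 402 called genes for IR vs control, 0 to 659 for treated IR vs IR and 0 to 37 for treated IR vs control. The log2 ratios of IR vs control then ran from -0.38 to 0.031 for Hspa5, -0.17 to 0.48 for Hsp90b1, -0.64 to 0.23 for Calr, -0.29 to 0.25 for Atf4, -0.88 to 0.32 for Ddit3 and -1.51 to 1.36 for Hspb1. For treated IR vs IR that of Hspb1 ran from 1.05 to 2.62 and that of Ddit3 from 0.46 to 1.68. For hepatocytes vs liver that of Hspb1 ran from -1.24 to -0.0013. For treated IR vs control they ran from -0.0025 to 0.41 for Hspa5, -0.15 to 0.67 for Calr and 0.33 to 3.19 for Hspb1.

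The number of genes apart in liver was 594, 275 and 715 for IR vs control, treated IR vs IR and treated IR vs control, and in hepatocytes 1635, 2311 and 826. A minimum count of 50 gave 254, 58, 292, 879, 1413 and 468, and a 1.5-fold rule 1240, 738, 1461, 3031, 3623 and 1772. For liver treated IR vs IR library totals alone gave 639 and no filter 504. Depth limits Ddit3 (16 to 94 reads per library) and Hspb1 (14 to 413 reads) most.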
